A study of Bos taurus with 31 samples.

Results

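The 37 genes described here serve protein folding in the endoplasmic reticulum (ER) and the stress signalling that adjusts it. They were taken from a given list of symbols, and all 37 were found among the 14084 rows of the count table, each in 1 row, and all 37 passed the filter on low counts. The ER is where secreted and membrane proteins are threaded through a channel, folded by chaperones, joined by disulfide bonds and, where folding fails, sent back to the cytosol for destruction. When unfolded protein builds up, the sensors encoded by ERN1, EIF2AK3 and ATF6 start the unfolded protein response, which raises chaperones and degradation factors and slows translation. The secretory epithelium of the mammary gland passes casein and other milk proteins through this route during lactation.

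Expression was measured by sequencing poly-A RNA of mammary epithelial organoids, the clusters of epithelium left when biopsied gland is digested with collagenase, trypsin and hyaluronidase and single cells are spun away. The lactating group held 16 libraries from dairy cows sampled 40 to 60 days into lactation, and the virgin group 15 libraries from heifers aged 14 months. The animals were the same 16 cows, of which 15 gave both stages and 1 only the lactating one. All libraries were strand-specific and carried synthetic spike-in RNA, and no treatment separated the groups other than stage. Stage cannot be told apart from age, parity and date of sampling. Libraries are named by L (lactating) or V (virgin) and the number of the cow. Levels are given as CPM, read counts scaled to the TMM-adjusted library size. TMM is edgeR's correction for a few genes that take many reads. The locus lengths behind the deposited RPKM lay within 10% of the genomic span in RefSeq, introns included, for 18 of the 37 genes, and whether reads in introns were counted is not given in the sources used here. Levels were therefore compared only between libraries and not between genes.

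Epithelial markers were present in every library, though most luminal ones were lower in lactation. EPCAM, an adhesion protein of epithelia, stood at 143 to 669 CPM in lactating and 191 to 790 CPM in virgin libraries and was not called. The keratins KRT8 (log2 fold change -1.38), KRT18 (-2.24) and KRT19 (-0.96) and the adhesion gene CDH1 (-0.60) were called lower, and of 7 luminal markers ELF5 alone was higher (1.03). Milk protein genes took 0.243% to 51.5% of counts in lactating libraries, with L538 (0.243%) and L478 (0.577%) lowest, and 0.0281% to 0.682% in virgin ones. Markers of other cells also moved with stage. All 8 endothelial markers were higher in lactation (summed level 258 to 1753 CPM in lactating and 34.8 to 760 CPM in virgin libraries), as were 9 of 10 macrophage markers (120 to 572 and 16.3 to 74.5 CPM) and all 8 tested lymphocyte markers (38.5 to 95.3 and 5.47 to 56.3 CPM). Of 7 tested plasma cell markers, cells that are themselves rich in ER, 5 were higher and 2 lower, with JCHAIN, the immunoglobulin joining chain, at 10.7 to 85.5 CPM in lactating and 0.212 to 31.0 CPM in virgin libraries. CD79A and CD8B were at 0 in some libraries, and 5 of 8 fibroblast markers were lower (515.6 to 1600 CPM in lactating and 370.7 to 21582 CPM in virgin libraries, highest in V502). COL1A1, COL1A2 and COL3A1, 3 of those 5, reached 6201, 5638 and 8275 CPM in V502 and were higher in lactation in 8, 9 and 8 of 15 animals. Of 8 myoepithelial markers KRT5, KRT14 and KRT17 were lower and 2 higher, KRT14 and KRT17 having the same counts and so being 1 measurement, and of 3 tested adipocyte markers 1 was lower and 1 higher. The part of these cells in the results below was not tested, and in such bulk samples fewer cells of a type and less RNA per cell cannot be told apart.

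More of the 37 genes were lower than higher in lactating organoids. Of the 37 genes, 19 (51.4%) were lower in lactation, 5 (13.5%) were higher and 13 were not called, by edgeR's quasi-likelihood test over all 13180 tested rows with an adjusted p under 0.05. Among all tested rows 30.9% were lower and 24.2% higher (55.1% in either direction), so the share of lower genes stood above the background and the share of higher ones below it. The median log2 fold change of the 37 genes was -0.36, against -0.08 over all rows. Most differences were modest, since 1 gene (HYOU1) was lower by more than 2-fold (2.8% of all rows were) and 0 were higher by more than 2-fold (5.39% of all rows were) in edgeR's test against that size, where at an unadjusted p under 0.05 CREB3L1 alone was higher and limma-voom also called 0. The HYOU1 call at that size was lost with limma-voom and with the animal as a block, and CREB3L1 was then called with the block. The stages overlapped in every one of the 37 genes, and the share of all rows in which they overlap was not computed. Without TMM factors the median of all rows moved by -0.48, and 27 of the 37 genes were lower and 1 higher, against 58.8% and 10.5% of all rows. With the animal as a block, 15 were lower (40.5%, against 27.8% of all rows) and 6 higher (16.2%, against 27.9%).

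**Figure D1:**
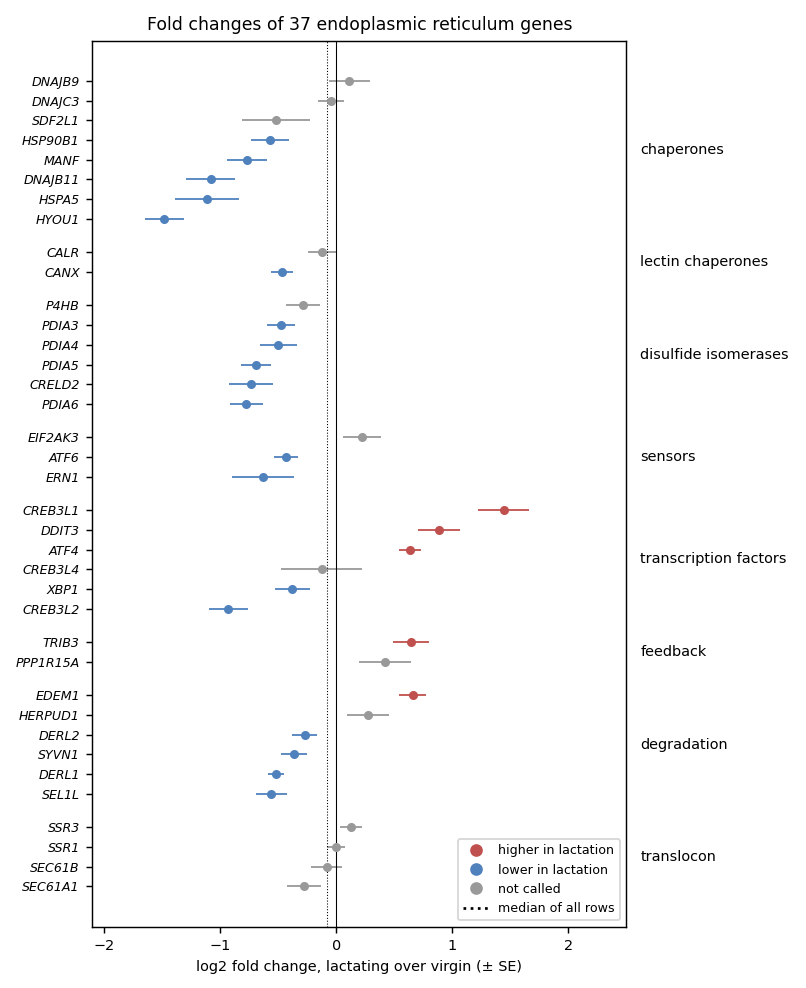
Log2 fold change of each gene, lactating over virgin, with its standard error (SE), grouped by role, with the dotted line at the median of all tested rows (-0.08). The 8 chaperones run from HYOU1 at -1.48 to DNAJB9 at 0.11 and all 6 disulfide isomerase genes lie left of the dotted line, while CREB3L1 (1.44), DDIT3 (0.89), ATF4 (0.64), TRIB3 (0.65) and EDEM1 (0.66) lie to the right.

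Of the 8 chaperones and their helpers, 5 were lower in lactation and 3 were not called. HYOU1, a large chaperone that releases nucleotide from the main ER chaperone BiP, ranged from 38.2 to 78.7 CPM in lactating libraries (median 61.0), against 71.3 to 330 CPM in virgin libraries (median 153). In 14 of 16 lactating libraries it lay below every virgin library, and V538 was the lowest virgin one. Its log2 fold change was -1.48 ± 0.17 (SE; edgeR adjusted p = 1.18e-08), and it was lower in 14 of 15 animals. DNAJB11, a co-chaperone that hands unfolded protein to BiP, ranged from 13.4 to 32.8 CPM in lactating and from 12.5 to 75.3 CPM in virgin libraries. Its log2 fold change was -1.08 ± 0.21 (edgeR adjusted p = 7.33e-05), with lower values in 13 of 15 animals.

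HSPA5, which encodes BiP, a standard readout of ER stress, gave a less even picture. It ranged from 771 to 1735 CPM in lactating libraries (median 1091), against 534 to 5419 CPM in virgin libraries (median 2664). Virgin libraries fell into separate ranges, with 10 at 2459 CPM or more, above every lactating library, and 5 at 1038 CPM or less. Those 5 were V509 (1038 CPM), V531 (635 CPM), V615 (620 CPM), V538 (551 CPM) and V610 (534 CPM), of which all but V509 lay below the lowest lactating library. The log2 fold change of -1.11 ± 0.28 (edgeR adjusted p = 0.00102) therefore averages over virgin libraries on both sides of the lactating range. HSPA5 was lower in lactation in 10 animals and higher in the 5 that gave those low virgin libraries, and with the animal as a block its log2 fold change was -0.80 (adjusted p = 0.0295).

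HSP90B1, the ER form of heat shock protein HSP90, ranged from 418 to 910 CPM in lactating and from 384 to 1447 CPM in virgin libraries. It was lower in 11 of 15 animals, at -0.57 ± 0.17 (edgeR adjusted p = 0.00418). Its 4 lowest virgin libraries were V538 (384 CPM), V610 (409 CPM), V615 (534 CPM) and V531 (536 CPM), which were also the 4 lowest for HSPA5. MANF, a secreted protein released under ER stress, ranged from 27.9 to 73.1 CPM in lactating libraries (median 41.4), against 33.2 to 134 CPM in virgin libraries (median 74.5). Only 3 lactating libraries lay below every virgin one, and MANF was down in 11 of 15 animals, at -0.77 ± 0.17 with an edgeR adjusted p of 3.62e-04. DNAJC3, an inhibitor of the kinase encoded by EIF2AK3, stood at 84.4 to 125 CPM in lactating and 50.4 to 163 CPM in virgin libraries and was not called (-0.04 ± 0.11, edgeR adjusted p = 0.772), but was called lower with no TMM factors (-0.53, adjusted p = 0.00299). DNAJB9, a co-chaperone of degradation and of BiP, was not called either (0.11 ± 0.18, and -0.36 without TMM factors). SDF2L1, a small partner of DNAJ proteins, was hardly measured, at 0.539 to 2.09 CPM in lactating and 0.318 to 3.72 CPM in virgin libraries (-0.52 ± 0.30, edgeR adjusted p = 0.139), and was called lower with no TMM factors (-0.998, adjusted p = 0.00214). The locus of DNAJB9 was 2.54 times as long as its RefSeq span, so reads of neighbouring genes may be joined to it. The row of its neighbour THAP5 was counted apart and was called lower (-0.69, edgeR adjusted p = 2.7e-04).

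**Figure D2:**
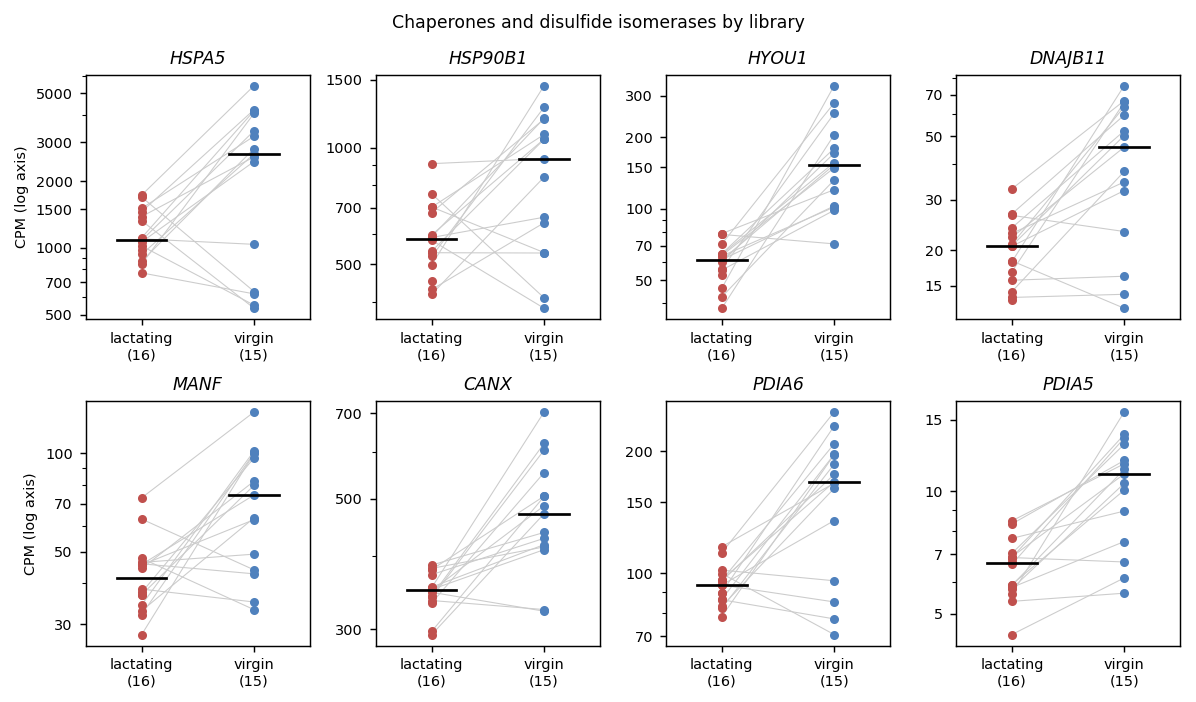
Levels in CPM on log axes of 8 folding genes in the 16 lactating and 15 virgin libraries, 1 point a library, grey lines joining the stages of 1 animal and black bars at the medians. HSPA5 shows 5 virgin libraries between 534 and 1038 CPM and 10 between 2459 and 5419 CPM, with all lactating libraries between 771 and 1735 CPM, while HYOU1 is at most 78.7 CPM in lactating libraries.

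The lectin chaperones and disulfide isomerases moved the same way, in 6 of 8 genes. CANX (calnexin), which holds glycoproteins at the ER membrane while they fold, stood at 294 to 386 CPM in lactating libraries (median 350) and 322 to 703 CPM in virgin libraries (median 472). The lactating values were tightly grouped at the lower edge of the virgin range (-0.47 ± 0.09 with an edgeR adjusted p of 1.08e-04), and 13 of 15 animals showed that direction. CALR (calreticulin), its soluble relative, was not called (-0.12 ± 0.12, edgeR adjusted p = 0.407), and was lower in 9 of 15 animals. With no TMM factors it was called lower (-0.56, edgeR adjusted p = 3.92e-04).

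Of the 6 isomerase genes, which make and reshuffle disulfide bonds, 5 were lower and P4HB was not called. PDIA6 ranged from 78.3 to 116 CPM in lactating and from 70.6 to 250 CPM in virgin libraries (log2 fold change -0.77 ± 0.14, edgeR adjusted p = 3.64e-05). V538, V610, V615 and V531 were its 4 lowest virgin libraries, at 70.6 to 95.9 CPM, within or below the lactating range. PDIA5 stood at 4.44 to 8.46 CPM in lactating and 5.62 to 15.7 CPM in virgin libraries (-0.69 ± 0.13, edgeR adjusted p = 4.33e-05), with 14 of 15 animals lower. PDIA3, the partner of the lectin chaperones, stood at 235 to 352 CPM in lactating and 206 to 557 CPM in virgin libraries (-0.47 ± 0.12, edgeR adjusted p = 0.00133). PDIA4 (-0.50 ± 0.16) and CRELD2, an ER-resident protein induced by stress (-0.74 ± 0.19), were also lower, CRELD2 with its highest virgin value of 37.1 CPM in V479 and a log2 fold change of -0.56 without that library. P4HB, protein disulfide isomerase itself and a subunit of collagen prolyl hydroxylase, was at -0.28 ± 0.15 on the log2 scale (edgeR adjusted p = 0.102). It peaked at 772 CPM in V479, against at most 439 CPM in any other virgin library, and its log2 fold change was -0.13 without V479. With no TMM factors P4HB was called lower (-0.75, edgeR adjusted p = 1.37e-05).

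Of the 3 stress sensors, 2 were called lower and 1 was not called, and whether their changes differ from each other was not tested. ATF6, which is cut at the Golgi to release a transcription factor, stood at 92.4 to 156 CPM in lactating and 97.9 to 235 CPM in virgin libraries (log2 fold change -0.44 ± 0.10, edgeR adjusted p = 6.91e-04). It was lower in 14 of 15 animals. Leaving out the 5 cows with a letter after the number in the virgin title gave -0.28 (edgeR adjusted p = 0.0767). ERN1 encodes IRE1, the kinase and nuclease that splices XBP1 mRNA. Its level was 120 to 225 CPM in lactating and 74.3 to 986 CPM in virgin libraries, with V478 highest at 986 CPM and the next virgin library at 433 CPM (V598). The log2 fold change of -0.63 ± 0.27 (edgeR adjusted p = 0.0458) became -0.29 (adjusted p = 0.240) without V478, and -0.23 (adjusted p = 0.442) with the animal as a block. The call was also lost without any 1 of L468, L478, L479, L495, L502, L504, L509, L531, L595, L598, L615, V490, V507, V595 or V598. EIF2AK3, which encodes PERK, the kinase that slows translation, was not called (0.22 ± 0.17, edgeR adjusted p = 0.263, and -0.21 without TMM factors). It stood at 31.1 to 115 CPM in lactating libraries (median 45.9), against 23.3 to 69.6 CPM in virgin libraries (median 46.6). The highest lactating values were 115 CPM in L478, 95.6 CPM in L538 and 86.3 CPM in L504. L478 and L538 are the lactating libraries with the lowest milk protein shares, and without these libraries EIF2AK3 was at 0.03 (edgeR adjusted p = 0.889).

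Transcription factors of the response included most of the genes that were higher. CREB3L1 (OASIS), an ER-membrane factor known from bone and other secretory cells, ranged from 10.7 to 49.6 CPM in lactating libraries (median 29.3), against 5.03 to 20.5 CPM in virgin libraries (median 8.29). In 12 of 16 lactating libraries it lay above every virgin library, and L478 was the lowest lactating one. Its log2 fold change was 1.44 ± 0.22 (edgeR adjusted p = 2.00e-06), with higher values in 15 of 15 animals, and it remained called without TMM factors. DDIT3 (CHOP), a factor induced by prolonged ER stress, stood at 11.6 to 40.7 CPM in lactating and 4.19 to 19.1 CPM in virgin libraries, highest in L507. It was higher in 15 of 15 animals (0.89 ± 0.18, edgeR adjusted p = 1.12e-04). Scaling with no TMM factors ended that call (0.33, edgeR adjusted p = 0.122).

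ATF4, the factor whose translation rises when PERK and related kinases are active, stood at 423 to 641 CPM in lactating libraries and 254 to 558 CPM in virgin ones, V479 being highest. It was higher in 15 of 15 animals, at 0.64 ± 0.09 on the log2 scale (edgeR adjusted p = 1.16e-06). Scaling with no TMM factors ended that call as well (0.15, edgeR adjusted p = 0.219). Its locus was 5.63 times its RefSeq span. The rows of its nearest coding neighbours in RefSeq, MIEF1 (-0.24, adjusted p = 0.0594) and RPS19BP1 (0.33, adjusted p = 0.0955), were counted apart and were not called. Whether the ATF4 locus holds reads of other genes was not tested. ATF4 is controlled largely at translation, which these data do not measure.

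CREB3L2, a relative of CREB3L1 active in secretory cells, went the other way, with 46.2 to 87.2 CPM in lactating and 55.7 to 201 CPM in virgin libraries (log2 fold change -0.93 ± 0.16, edgeR adjusted p = 1.79e-05). It was lower in 13 of 15 animals. XBP1, the factor made active by ERN1, stood at 99.7 to 196 CPM in lactating and 104 to 319 CPM in virgin libraries, where V479 (319 CPM) and V504 (308 CPM) were highest. Its log2 fold change was -0.38 ± 0.15 (edgeR adjusted p = 0.0345). The call was lost with the animal as a block (-0.30, adjusted p = 0.115), with limma-voom (-0.30, adjusted p = 0.0952), without the 5 lettered cows (-0.38, adjusted p = 0.132) and without L595, V468, V479, V504 or V507 in turn (adjusted p up to 0.0744). Its locus was 2.67 times its RefSeq span. The rows of its neighbours CCDC117 (-0.42, edgeR adjusted p = 0.00935) and TNIP3 (3.57, adjusted p = 2.2e-07) were counted apart and were called. Gene counts hold spliced and unspliced XBP1 mRNA together. CREB3L4, a relative found in glandular epithelia, was low and not called, at 1.29 to 3.58 CPM in lactating and 0.239 to 8.46 CPM in virgin libraries (-0.12 ± 0.35, and 0.38 with the animal as a block).

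**Figure D3:**
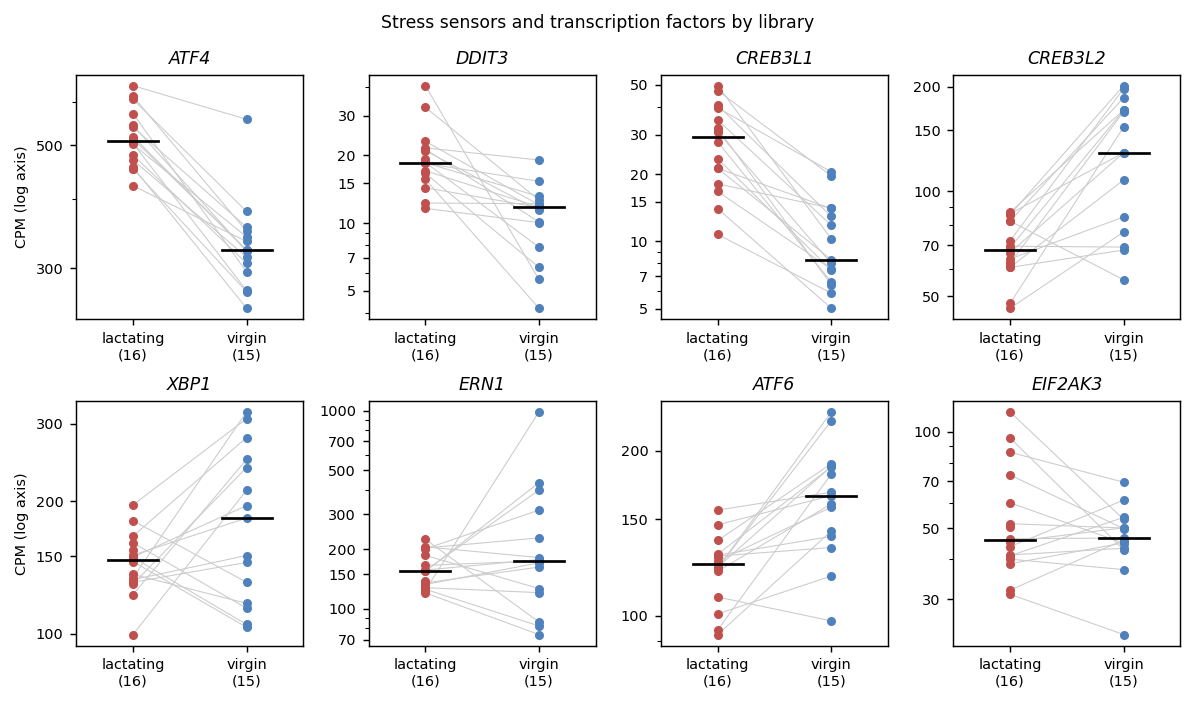
Levels in CPM on log axes of 5 transcription factors and 3 sensors in the 16 lactating and 15 virgin libraries, 1 point a library, grey lines joining the stages of 1 animal and black bars at the medians. ATF4, DDIT3 and CREB3L1 are higher in lactation in all 15 animals, CREB3L2 is lower in 13, and the ERN1 panel shows V478 alone at 986 CPM.

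The feedback genes sit downstream of ATF4 and DDIT3. TRIB3, a pseudokinase that restrains ATF4 and DDIT3, was higher in 14 of 15 animals, at 21.8 to 65.2 CPM in lactating and 15.6 to 46.6 CPM in virgin libraries (log2 fold change 0.65 ± 0.15, edgeR adjusted p = 5.91e-04). Its row had the same counts as that of RBCK1 in every library, over a locus 3.11 times its RefSeq span, so the value belongs to both genes, and with no TMM factors it was not called (0.09, edgeR adjusted p = 0.634). PPP1R15A (GADD34), which restores translation by directing the removal of phosphate from eIF2alpha, was not called (0.42 ± 0.23, edgeR adjusted p = 0.113). It stood at 83.0 to 218 CPM in lactating and 45.1 to 248 CPM in virgin libraries. It was called higher with the animal as a block (0.61, adjusted p = 0.0307), with limma-voom (adjusted p = 0.0218) and without V478 (0.55, adjusted p = 0.0298) or V490 (0.52, adjusted p = 0.0474).

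Of the 6 genes of ER-associated degradation, 4 were lower, 1 was higher and 1 was not called. DERL1, a channel protein for export to the cytosol, stood at 83.0 to 113 CPM in lactating and 110 to 165 CPM in virgin libraries, and in 14 of 16 lactating libraries lay below every virgin library. Its log2 fold change of -0.52 ± 0.07 (edgeR adjusted p = 3.30e-07) was smaller than that of HYOU1, but its spread was among the narrowest (SD of log2 CPM 0.12 over lactating and 0.18 over virgin libraries). It was lower in 14 of 15 animals. SEL1L, the adaptor of the HRD1 ubiquitin ligase, stood at 40.3 to 73.0 CPM in lactating libraries (median 54.9), against 50.6 to 130 CPM in virgin libraries (median 84.9). The stages overlapped widely, and SEL1L was lower, at -0.56 ± 0.14 (edgeR adjusted p = 8.28e-04) and in 12 of 15 animals. SYVN1, the ligase itself, was lower too (-0.36 ± 0.11, edgeR adjusted p = 0.00790), with an adjusted p of 0.0535 with the animal as a block. DERL2, a relative of DERL1, passed narrowly (-0.27 ± 0.11, edgeR adjusted p = 0.0361). That call was lost with the block (adjusted p = 0.106), with limma-voom (adjusted p = 0.0678) and without L531, L581, L595, L615, V468, V504 or V595 in turn (adjusted p up to 0.0749).

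EDEM1, a lectin that picks misfolded glycoproteins for destruction, was the degradation gene that was higher. It stood at 200 to 434 CPM in lactating and 95.9 to 212 CPM in virgin libraries, above every virgin library in 14 of 16 lactating ones, and highest in L538 (434 CPM) and L478 (432 CPM). The log2 fold change was 0.66 ± 0.11 (edgeR adjusted p = 1.34e-05). Its locus was 3.99 times as long as its RefSeq span, so the reads may not be those of EDEM1 alone, and with no TMM factors it was not called (0.20, edgeR adjusted p = 0.317). Of the 5 genes called higher, 3 (ATF4, TRIB3 and EDEM1) were counted over a locus more than 2 times their RefSeq span, against 1 (XBP1) of the 19 called lower. Among all rows with a RefSeq span, 1031 of 12539 had such a locus. HERPUD1, a stress-induced membrane protein of the same machinery, was not called (0.27 ± 0.18, edgeR adjusted p = 0.198, higher in 12 of 15 animals, and -0.18 without TMM factors).

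The translocon genes, which carry new chains into the ER, were called in 0 of 4 cases by edgeR, limma-voom and DESeq2, and 0 passed at an unadjusted p under 0.05 in edgeR. SEC61A1, the pore subunit, stood at 56.8 to 100 CPM in lactating and 55.9 to 228 CPM in virgin libraries (log2 fold change -0.28 ± 0.15, edgeR adjusted p = 0.109). V479 again stood apart at 228 CPM, and the value was -0.12 without it. SEC61B was at -0.08 ± 0.13. SSR1, of the complex that sits beside the pore, was at 175 to 247 CPM in lactating and 152 to 254 CPM in virgin libraries. Its log2 fold change was 0.00 ± 0.08 (edgeR adjusted p = 0.994). SSR3 was at 0.13 ± 0.09, over a locus 6.05 times its RefSeq span. The rows of its neighbours TIPARP (1.26, edgeR adjusted p = 1.31e-08) and KCNAB1 (-1.35, adjusted p = 0.0243) were counted apart and were called. Without TMM factors SEC61A1 (-0.73), SEC61B (-0.53), SSR1 (-0.49) and SSR3 (-0.39) were all called lower. So were 58.8% of all rows in that setting, with a median log2 fold change of -0.56 over all rows.

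HSPA5 was set against the other 36 genes within each stage, to see which ER genes varied with BiP from cow to cow. Other rows were not correlated with HSPA5, so the counts of positive or passing genes have no background share beside them. Among the 16 lactating libraries, 31 of 36 correlations of log2 CPM were positive and 3 passed (two-sided permutation test with 100000 resamples, Benjamini-Hochberg over 36). HSP90B1 followed HSPA5 most closely (Pearson's r = 0.79, permutation p = 2.3e-04, adjusted p = 0.00828; Spearman's rho = 0.82, permutation p = 2.6e-04, adjusted p = 0.00936), and r was 0.81 without the 2 libraries farthest from the median of HSPA5, L478 and L531. DNAJC3 (r = 0.73, permutation p = 0.0013, adjusted p = 0.0234; rho = 0.63, p = 0.0113, adjusted p = 0.136) and PDIA3 (r = 0.70, permutation p = 0.00227, adjusted p = 0.0272; rho = 0.56, p = 0.0267, adjusted p = 0.192) passed by r only. Without L478 and L531, r was 0.59 for DNAJC3 and 0.46 for PDIA3. HYOU1, the most lowered gene by stage, had an r of 0.16 (permutation p = 0.555, adjusted p = 0.645; rho = 0.26, p = 0.326). These values depend on the scaling, since with no TMM factors 31 of 36 genes passed and r was 0.65 for HYOU1 and 0.89 for HSP90B1. In the 11 lactating libraries of cows whose virgin library has no letter in its title, 0 of 36 passed, with r = 0.78 for HSP90B1, 0.55 for DNAJC3 and 0.62 for PDIA3. The remaining 5 are too few for a value.

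Virgin libraries fell into separate ranges of HSPA5, so no r was taken over all 15. Among the 10 at 2459 CPM or more, 14 of 36 correlations were positive and 0 passed, with 3 at an unadjusted permutation p under 0.05 by Pearson's r and 2 by Spearman's rho. CREB3L2 had the largest r (0.78, permutation p = 0.00735, adjusted p = 0.265; rho = 0.83, p = 0.00431), and r was 0.80 without V478 and V598. HERPUD1 (r = 0.71, permutation p = 0.0225, adjusted p = 0.395; rho = 0.72, p = 0.0234) and PPP1R15A (r = 0.69, permutation p = 0.0329, adjusted p = 0.395; rho = 0.58, p = 0.0907) followed. HSP90B1 was at r = 0.17 (permutation p = 0.638; rho = 0.13, p = 0.731). Whether the correlations differ between stages was not tested. The 10 virgin libraries were chosen by their level of HSPA5, which narrows its range. Their values therefore cannot show whether genes varied with HSPA5 over all 15, nor be set against those in lactation.

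**Figure D4:**
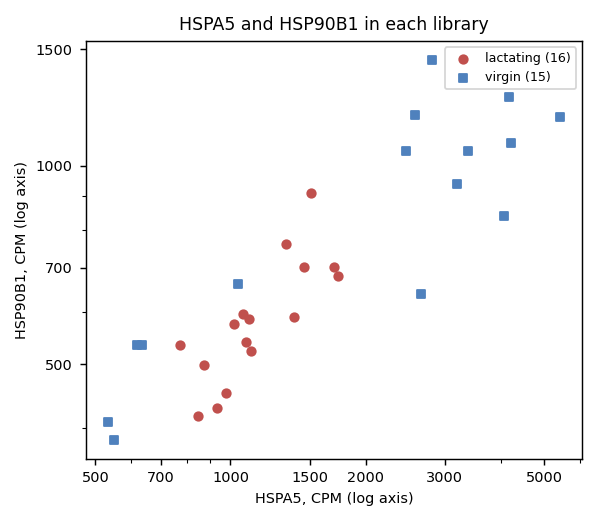
HSP90B1 against HSPA5, both in CPM on log axes, 1 point a library, circles for the 16 lactating and squares for the 15 virgin libraries. Lactating libraries form 1 rising cloud (r = 0.79 on log2 CPM), and virgin libraries lie in separate clouds at 1038 CPM or less and at 2459 CPM or more of HSPA5.

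Beyond the 37 genes, 107 of 112 other listed genes of the secretory pathway were tested, of which 22 (20.6%) were higher and 27 (25.2%) lower in lactation. Both shares were under those of all rows (24.2% and 30.9%), and the median log2 fold change was -0.05. These lists were fitted with TMM factors alone, so their calls under other scaling were not tested. Of 9 genes of the N-glycan transfer complex, which hangs sugars on new chains, 6 were lower and 2 higher, led by TUSC3 (-0.61 ± 0.11), STT3A (-0.31 ± 0.07) and DDOST (-0.59 ± 0.15). Of 16 genes of ER exit and retrieval, 6 were lower and 3 higher, with the vesicle coat genes SEC31A (-0.77 ± 0.09) and SEC24C (-0.68 ± 0.10) lower in 14 of 15 animals each, and MCFD2, the partner of the cargo receptor LMAN1, higher (0.85 ± 0.18).

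Redox and further folding genes mostly stayed uncalled. Of 12 redox genes, 3 were lower and 1 higher, with TXNDC11 at -0.63 ± 0.10 (lower in 15 of 15 animals), the oxidase ERO1B, which recharges disulfide isomerases, at 0.78 ± 0.12 (higher in 15 of 15), and QSOX1, a secreted sulfhydryl oxidase, at -1.09 ± 0.21. Of 13 further folding genes, 2 were lower and 1 higher, with the glucosidase MOGS at -0.90 ± 0.15, SDF2 at 0.55 ± 0.14 and the prolyl isomerase PPIB at -0.46 ± 0.17. Of 18 further degradation genes, 3 were lower and 2 higher, with FAF2 (-0.98 ± 0.09, lower in 15 of 15 animals), NPLOC4 (-0.45 ± 0.08) and DERL3 (-1.09 ± 0.26) leading. FAF2 and NPLOC4 recruit the ATPase VCP to extract proteins. Of 19 further translocation genes, 4 were higher and 4 lower, with SEC62 (0.67 ± 0.11, higher in 15 of 15 animals) and TRAM1 (0.52 ± 0.12) higher and SRP72 of the signal recognition particle lower (-0.45 ± 0.09).

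Of 20 stress signalling genes outside the 37, 9 were higher and 3 lower, against 24.2% higher and 30.9% lower among all rows. Their median log2 fold change was 0.25, against -0.08 over all rows. DDIT4, an inhibitor of mTORC1 induced by ATF4 and by glucocorticoids, stood at 49.9 to 147 CPM in lactating and 14.2 to 55.4 CPM in virgin libraries (1.68 ± 0.19, edgeR adjusted p = 1.55e-08). EIF2AK2 (PKR), an eIF2alpha kinase that senses double-stranded RNA, was at 1.06 ± 0.15 on the log2 scale and ATF5, a relative of ATF4 counted over 5.33 times its RefSeq span, one of 1.18 ± 0.17. These 3 were higher in 15 of 15 animals. BHLHA15 (MIST1), a factor of secretory cells picked after its values were seen, stood at 2.12 to 60.9 CPM in lactating and 0.177 to 7.98 CPM in virgin libraries (2.84 ± 0.42, edgeR adjusted p = 1.29e-06).

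**Figure D5:**
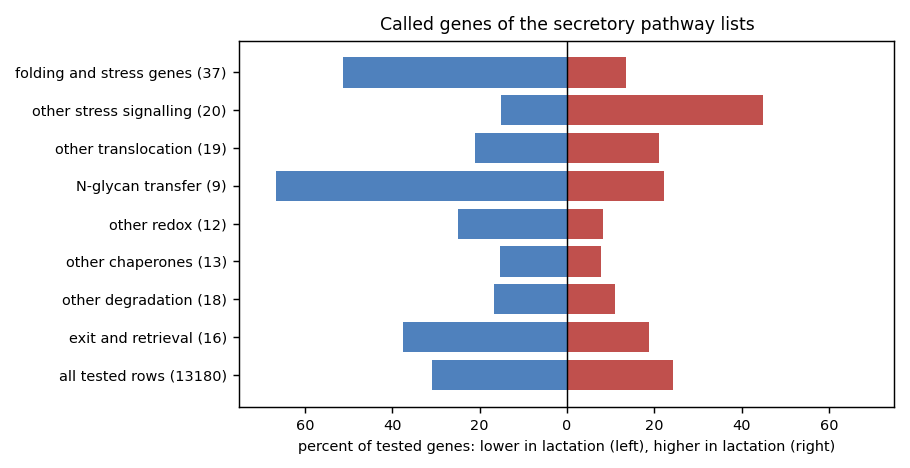
Percent of tested genes called lower (left bars) and higher (right bars) in lactation for the 37 genes, for 7 lists of other secretory pathway genes, with the number tested in brackets, and for all 13180 tested rows. The 37 genes show 51.4% lower and 13.5% higher, against 30.9% and 24.2% of all rows.

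The authors' deposited table gives an adjusted p under 0.05 to 4 of the 37 genes as higher and to 5 as lower in lactation, and of exactly 1 to 24. The shares of all rows in these classes were not computed, so the counts have no background beside them. HYOU1 had a log2 fold change of 1.46 in the authors' deposited table, coded virgin minus lactating, with an adjusted p of 4.44e-12. HSPA5 had 1.09 in the same direction with an adjusted p of 1 in the authors' deposited table.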

How the data were processed

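RNA sequencing of 31 bovine organoid libraries was analysed. Read counts per gene locus were deposited by the authors as whole numbers without normalization. RPKM values, their log2 fold changes (virgin minus lactating, judged from the RPKM) and adjusted p-values were deposited by the authors in another table. Per the submitters' processing notes, HISAT2 2.0, StringTie 1.3.2, featureCounts 1.5.2, SAMtools and edgeR were used with build UMD3.1. The sources used here do not give what each tool did or how the p-values were adjusted. Locus lengths were recovered from counts and RPKM, were whole to within 1.77e-07, and matched genomic spans in RefSeq (ARS-UCD2.0, used for names and spans only) to within 10% for 18 of 37 genes. Total counts were 26827018 to 72138358 in lactating and 20128378 to 60114505 in virgin libraries, or 17637505 to 45478555 and 12477568 to 38794104 with repeated loci counted once.

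Counts were fitted with edgeR 4.0.16 in R 4.3.3 (filterByExpr with a minimum count of 10 and total of 15, TMM, robust glmQLFit, glmQLFTest; glmTreat for changes over 2-fold) with stage as the only term, and p-values were Benjamini-Hochberg adjusted over all rows. SE is the size of the log2 fold change over the square root of F. The steps were tested on simulated data. Animal directions used log2(CPM + 1); correlations used log2 CPM with a prior count of 2. The virgin correlations were planned over 15 libraries and were made over 10, because HSPA5 fell into separate ranges. Alternatives were limma-voom 3.58.1, DESeq2 1.42.0 and others given with their effect. The 37 genes, lists and tests were chosen with earlier results of these data known. All sensors, factors and feedback genes were described, the 3 smallest p in every other role and in each other list, and markers by counts and sums. HSPA5, HSP90B1 and other genes outside that rule were described after their values were seen.

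The number in the labels is the cow, so it pairs the samples. After removal of stage means, both libraries of a cow correlated at 0.0702 to 0.392 (mean 0.221), against a mean of -0.016 between libraries of different cows. In only 9 of 15 cows did the lactating library correlate best with the virgin library of the same cow. No libraries of 1 stage agreed within sampling noise (lowest chi-square per degree of freedom 50.3 for lactating and 38.6 for virgin pairs). Each library came from its own cow within a stage. An item withheld from the text is not reported here.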

Additional observations from a re-analysis of the deposited data

How the results depend on the processing

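Across 12 other settings, 396 of 443 log2 fold changes kept their direction and side of the threshold, 20 lost and 10 gained the call, and 17 changed sign; 28 of 37 genes changed neither outside the fit without TMM factors. Lower genes numbered 15 to 19 in every setting except 27 without TMM factors, and higher genes 5 or 6 except 1 without TMM factors. Genes lower by more than 2-fold were 0 with the replicate block (animal as a block), 0 by limma-voom and 2 without TMM factors; genes higher by more than 2-fold were 1 with the block, without L478 and L538, and without V479 and V502 (a choice made after seeing the data). DESeq2 gave no test of that size. With 1 library left out, 16 to 19 genes were lower, 5 to 6 higher, 0 to 1 higher by more than 2-fold and 1 to 1 lower by more than 2-fold. Correlations with HSPA5 in lactating libraries passed for 31 genes without TMM factors, 1 by Spearman's rho and 0 without the 5 lettered cows, against 3; the cause was not tested.

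Signs turned without TMM factors in DNAJB9 (-0.3584), EIF2AK3 (-0.2073), PPP1R15A (-4e-04), HERPUD1 (-0.1782) and SSR3 (-0.3851), which then was called. With the block they turned in DNAJC3 (0.0047), CREB3L4 (0.3834) and SSR1 (0.0101), and with limma-voom in DNAJC3 (0.001), CREB3L4 (0.5345) and SSR1 (0.0083). SSR1 (-8e-04) also turned with 30 libraries and no block (0.0016), DESeq2 (0.0014), milk genes left out of scaling (2e-04), no filter (0.0022), 1 CPM in 15 libraries (0.0018) and no lettered titles (0.0467). With 1 library left out, DNAJC3 ran from -0.1093 to 0.0093, CREB3L4 from -0.24 to 0.1325 and SSR1 from -0.0369 to 0.0233. Beside the calls over 2-fold of HYOU1 and CREB3L1, only those of ERN1, XBP1, SYVN1, DERL2 and PPP1R15A differed with the block. The block was fitted to 30 libraries, without L495. In those 30 without the block, ERN1 had also lost its call (edgeR adjusted p = 0.0603). SDF2L1 was not tested at 1 CPM in 15 libraries.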

Other observations

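The 37 genes did not share 1 extreme library. V538 was the lowest virgin library for 13 of them and V610 for 6, while V479 was the highest for 11 and V504 for 7. V479 was also the lowest virgin library for 5. The 5 virgin libraries low in HSPA5 were also the lowest 5 for MANF, CALR, PDIA3, PDIA6, XBP1, CREB3L2 and CREB3L4. For the remaining genes they were not the lowest 5. What sets these libraries apart was not tested. In lactation L478 was highest for 9, L507 for 7 and L504 for 6. The SD of log2 CPM was larger over virgin than over lactating libraries in 33 of 37 genes (89.2%), and in 87.2% of all tested rows. The median SD of the 37 genes was 0.28 over lactating and 0.51 over virgin libraries, against 0.34 and 0.57 over all rows. HSPA5 had an SD of 0.36 over lactating and 1.21 over virgin libraries, and CREB3L1 of 0.64 and 0.63.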
